A study of Rattus norvegicus with 9 samples.

Results

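The genes of antigen presentation were examined in rat prostates: the RT1 genes, which form the major histocompatibility complex (MHC) of the rat, and 18 genes that load peptides onto MHC molecules, process those peptides or control transcription of the complex. Members were chosen by name. RefSeq held 85 such symbols, 67 of them RT1 genes, and 54 genes were matched to a probe of the array through the transcript accession of the probe, of 15163 genes matched in all. These 54 genes carried 63 of 30356 probes, and 9 of them had 2 probes. The set held 38 RT1 genes (9 of class II, and 29 of class I or other type) and 16 genes with other names. No probe was matched to 29 RT1 symbols, to Erap1 (a trimming aminopeptidase of the endoplasmic reticulum) or to Nlrc5 (the transactivator of class I genes), and these were not analysed here.

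The arrays measured prostates of 9 male Sprague Dawley rats, an outbred stock, which were 6 weeks old when the experiment began. In the sham group, rats underwent a sham operation and received corn oil under the skin and water by mouth. In the BPH group (benign prostatic hyperplasia), rats were castrated and given dihydrotestosterone at 3 mg/kg subcutaneously each day for 4 weeks, with water by mouth. The BPH+ghrelin group differed from it by rat ghrelin, a hormone of the stomach, given by mouth at 20 nmol/kg daily for 2 weeks. Each group had 8 rats in the study and 3 arrays here, 1 sample per array. All 3 groups received injections and oral dosing, and both BPH groups lacked testes, so BPH against sham compares castration and androgen together.

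MHC class I molecules sit on nearly all nucleated cells as a heavy chain paired with beta-2 microglobulin (B2m), and show peptides cut by the proteasome and pumped into the endoplasmic reticulum by the transporter Tap1/Tap2. Class II molecules are alpha and beta chain pairs (RT1-B and RT1-D in the rat) that are carried by the invariant chain Cd74, loaded in lysosomes, and found mainly on macrophages, dendritic cells and B cells. Interferon gamma raises both pathways, and class II transcription needs the coactivator Ciita. In prostate tissue, as in other organs, resident and infiltrating leukocytes carry most class II molecules, and glandular and stromal cells carry class I. RT1 alleles differ between rat strains and between outbred rats.

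RefSeq promoters (build GRCr8; windows of 250 bases before to 50 after the start) matched 47 of the 54 genes. Stretches of 200 bases before the start are shown for 5 genes whose transcripts are described below: the class II genes RT1-Bb (chr20:4604119-4604318, minus strand) and RT1-Da (chr20:4515215-4515414, plus strand), the class I genes RT1-CE16 (chr20:3265444-3265643, minus strand) and RT1-CE4 (chr20:3509157-3509356, minus strand), and B2m (chr3:129549130-129549329, plus strand). Each is written 5′ to 3′ on the strand of its gene. Capitals mark matches, on either strand, to the class II X1 box consensus, to CCAAT (printed as its complement where inverted), to the kappaB-like GGGANTCCC, or to GAAANNGAAA, a pair of GAAA runs as in interferon response elements.

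RT1-Bb: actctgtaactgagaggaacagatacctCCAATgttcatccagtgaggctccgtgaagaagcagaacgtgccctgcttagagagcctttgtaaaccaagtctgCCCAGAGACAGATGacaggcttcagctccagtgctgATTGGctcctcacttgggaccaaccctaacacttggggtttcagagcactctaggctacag
RT1-Da: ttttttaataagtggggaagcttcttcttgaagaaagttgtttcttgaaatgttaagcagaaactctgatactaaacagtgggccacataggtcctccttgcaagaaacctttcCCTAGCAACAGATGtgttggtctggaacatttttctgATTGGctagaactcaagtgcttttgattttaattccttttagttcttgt
RT1-CE16: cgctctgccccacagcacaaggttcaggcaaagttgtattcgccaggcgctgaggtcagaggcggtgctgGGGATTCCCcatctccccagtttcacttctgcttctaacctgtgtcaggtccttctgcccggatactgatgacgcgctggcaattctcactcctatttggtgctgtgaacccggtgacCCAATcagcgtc
RT1-CE4: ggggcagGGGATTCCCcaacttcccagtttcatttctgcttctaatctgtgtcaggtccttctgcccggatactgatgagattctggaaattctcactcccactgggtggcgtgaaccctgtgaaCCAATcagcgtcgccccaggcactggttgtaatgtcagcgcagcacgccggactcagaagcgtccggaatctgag
B2m: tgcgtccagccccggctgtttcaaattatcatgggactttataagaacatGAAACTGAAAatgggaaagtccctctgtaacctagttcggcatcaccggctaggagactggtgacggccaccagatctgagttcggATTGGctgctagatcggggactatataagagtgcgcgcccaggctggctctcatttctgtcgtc

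The X1 box consensus, which binds the regulatory factor X complex in class II promoters, was found in 3 of the 47 promoters (RT1-Bb, RT1-Da and RT1-DOb) and in 9 of all 27457 promoters, or 0.0328%. It began 97 bases before the start in RT1-Bb, 86 bases in RT1-Da and 117 bases in RT1-DOb, and an inverted CCAAT followed at 61, 49 and 83 bases. GGGANTCCC occurred in 7 member promoters, all of class I genes (RT1-A1, RT1-A2, RT1-CE4, RT1-CE10, RT1-CE11, RT1-CE13 and RT1-CE16), against 0.656% of all promoters. GAAANNGAAA occurred in 10 (B2m, Psmb8, Psmb10, Psme2, Tap1, Tap2, Tapbp, RT1-N3, RT1-S2 and RT1-S3), against 3.77% of all, and CCAAT in 32, against 37.7% of all. No printed match overlapped another. The matches describe letters in these windows of the reference genome, not bound sites.

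The share of probes well above background ran from 61.4% on sham replicate 2 to 75.05% on BPH replicate 2, and no spot was saturated. Prostate markers were present: probasin (Pbsn), an androgen-driven secretory protein of the rat prostate, had log2 signals of 16.2 to 16.4 on the sham arrays and 13.1 to 14.5 on the others. Values below are quantile normalized log2 signals of 1 probe per gene. In every group, the same array lay between the other 2 at most of 22568 probes (sham replicate 3 at 72.8%, BPH replicate 2 at 70.6% and BPH+ghrelin replicate 2 at 68.3%), and over 54 member probes this share was 90.7%, 87.0% and 72.2%. Places were taken at member probes where the other 2 arrays lay at least 4-fold apart, with the brighter well above background and at a log2 signal of at least 5. At 5 such probes of BPH, replicate 2 took a place of 0.476 to 0.617 of the way from replicate 3 to replicate 1 on the linear scale, and at 4 such probes of sham, replicate 3 took 0.567 to 0.736 of the way from replicate 2 to replicate 1. Below that signal, sham replicate 3 took 0.306 at RT1-M2, and BPH+ghrelin replicate 2 lay at the level of replicate 3 at RT1-M5. Whether these arrays are independent samples was not tested, and the main counts of the members are therefore also given without them. Scan times put sham replicate 3 alone, sham replicates 1 and 2 with BPH+ghrelin replicates 2 and 3, and the 3 BPH arrays with BPH+ghrelin replicate 1, so that BPH and sham shared no scan. No source used here names the rat behind each array, so p-values measure the spread between these samples.

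BPH against sham addressed what castration with androgen did to the prostate. B2m fell and RT1-Bb rose by 1 of its 2 probes, and no other member passed the test. B2m was 2.22-fold lower (log2 difference −1.15, SE 0.25, limma adjusted p = 0.0439). RT1-Bb was 5.20-fold higher (2.38, SE 0.45, limma adjusted p = 0.0316). Of 46 members tested, 30 had lower and 16 higher means in BPH, with a median difference of −0.25 against 0.04 over all 19552 genes tested. Here and below, all genes include probes matched to no gene symbol. A call is an adjusted p under 0.05 over all genes, and 2.18% of all genes were called lower and 2.15% higher, so 1 member in each direction was near the background. The arrays did not overlap for 3 members that were lower (14.2% of all genes) and 3 that were higher (17.1%). Without BPH replicate 3 the median of the members was −0.073, and without a filter on dim probes it was −0.15. Scaling to the 75th percentile moved the median of all genes to −0.09 and gave 34 lower members. Without the middle array of each group, 0 members (3 genes of all) were called and 29 of 46 were lower. Then 3 members lay below and 3 above without overlap, against 17.4% and 19.2% of all genes.

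BPH+ghrelin against BPH addressed the effect of oral ghrelin, and both members called lower belong to the class II pathway. Cd74 was 2.09-fold lower and RT1-Da, the alpha chain of RT1-D, was 2.20-fold lower. Of 25 class I and other RT1 genes, 21 had lower means, with a median difference of −0.59 and a range of −1.33 to 1.31. By limma 0 of the 25 were called, and 10 were lower and 0 higher at an unadjusted p under 0.05, at which 10.5% of all genes were lower and 10.7% higher. Over the 47 members tested, 37 had lower means and 10 higher, with a median of −0.31 against 0.02 over 19749 genes. With 75th percentile scaling these were 32 lower members and a median of −0.19, against 0.10 over all genes. Calls were 2 lower and 0 higher, against 0.987% and 0.496% of all genes, and at an unadjusted p under 0.05, 15 members were lower and 1 higher, against the same 10.5% and 10.7%. For 19 members all 3 ghrelin arrays lay below all 3 BPH arrays, or 16 of the 31 RT1 genes tested and 3 of the 16 others, against 19.3% of all genes. For 2 members they lay above (RT1-M4 and Psmb10), against 19.8% of all genes. Without the middle arrays, 0 members were called, as were 0 of all genes, 36 of 47 were lower, and 2 were lower and 0 higher at an unadjusted p under 0.05 (2.44% of all genes were lower). Of the 25 class I and other RT1 genes, 20 were then lower, with 0 at that p. Then 20 members lay below without overlap (17 of the 31 RT1 genes and 3 of the 16 others), against 21.9% of all genes.

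BPH+ghrelin against sham shares arrays with both other comparisons. The rats given androgen and ghrelin had lower signal of B2m, of 9 class I genes, of Cd74 and of both RT1-D chains, RT1-Da and RT1-Db1, and higher signal of the first RT1-Bb probe, while the second RT1-Bb probe was lower. These were 13 members called lower (3.30% of all 19197 genes were) and 1 called higher (3.00%), of 46 tested. The median difference of the members was −0.42 against 0.04 over all genes, and for 24 class I and other RT1 genes it was −0.96. The arrays did not overlap for 19 members that were lower (12.8% of all genes) and 3 that were higher (17.5%). Calls varied with single arrays, over all genes as among the members. They were 11 members (8.61% of all genes) without sham replicate 1, 17 (10.03%) without sham replicate 2 and 1, B2m, (1.34%) without sham replicate 3. They were 2, B2m and RT1-T18, without BPH+ghrelin replicate 1 (2.12%) or replicate 3 (2.88%), and 0 without replicate 2 (1.16%). Without the middle array of each group none of the members and 2 of all genes were called, 35 of 46 members were lower, and 20 lay below without overlap (15.5% of all genes). With scan as a block, 0 members and 84 genes were called. Within the scan that held 2 sham and 2 BPH+ghrelin arrays, the median of the members was −0.42 against 0.05 for all genes.

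**Figure D1:**
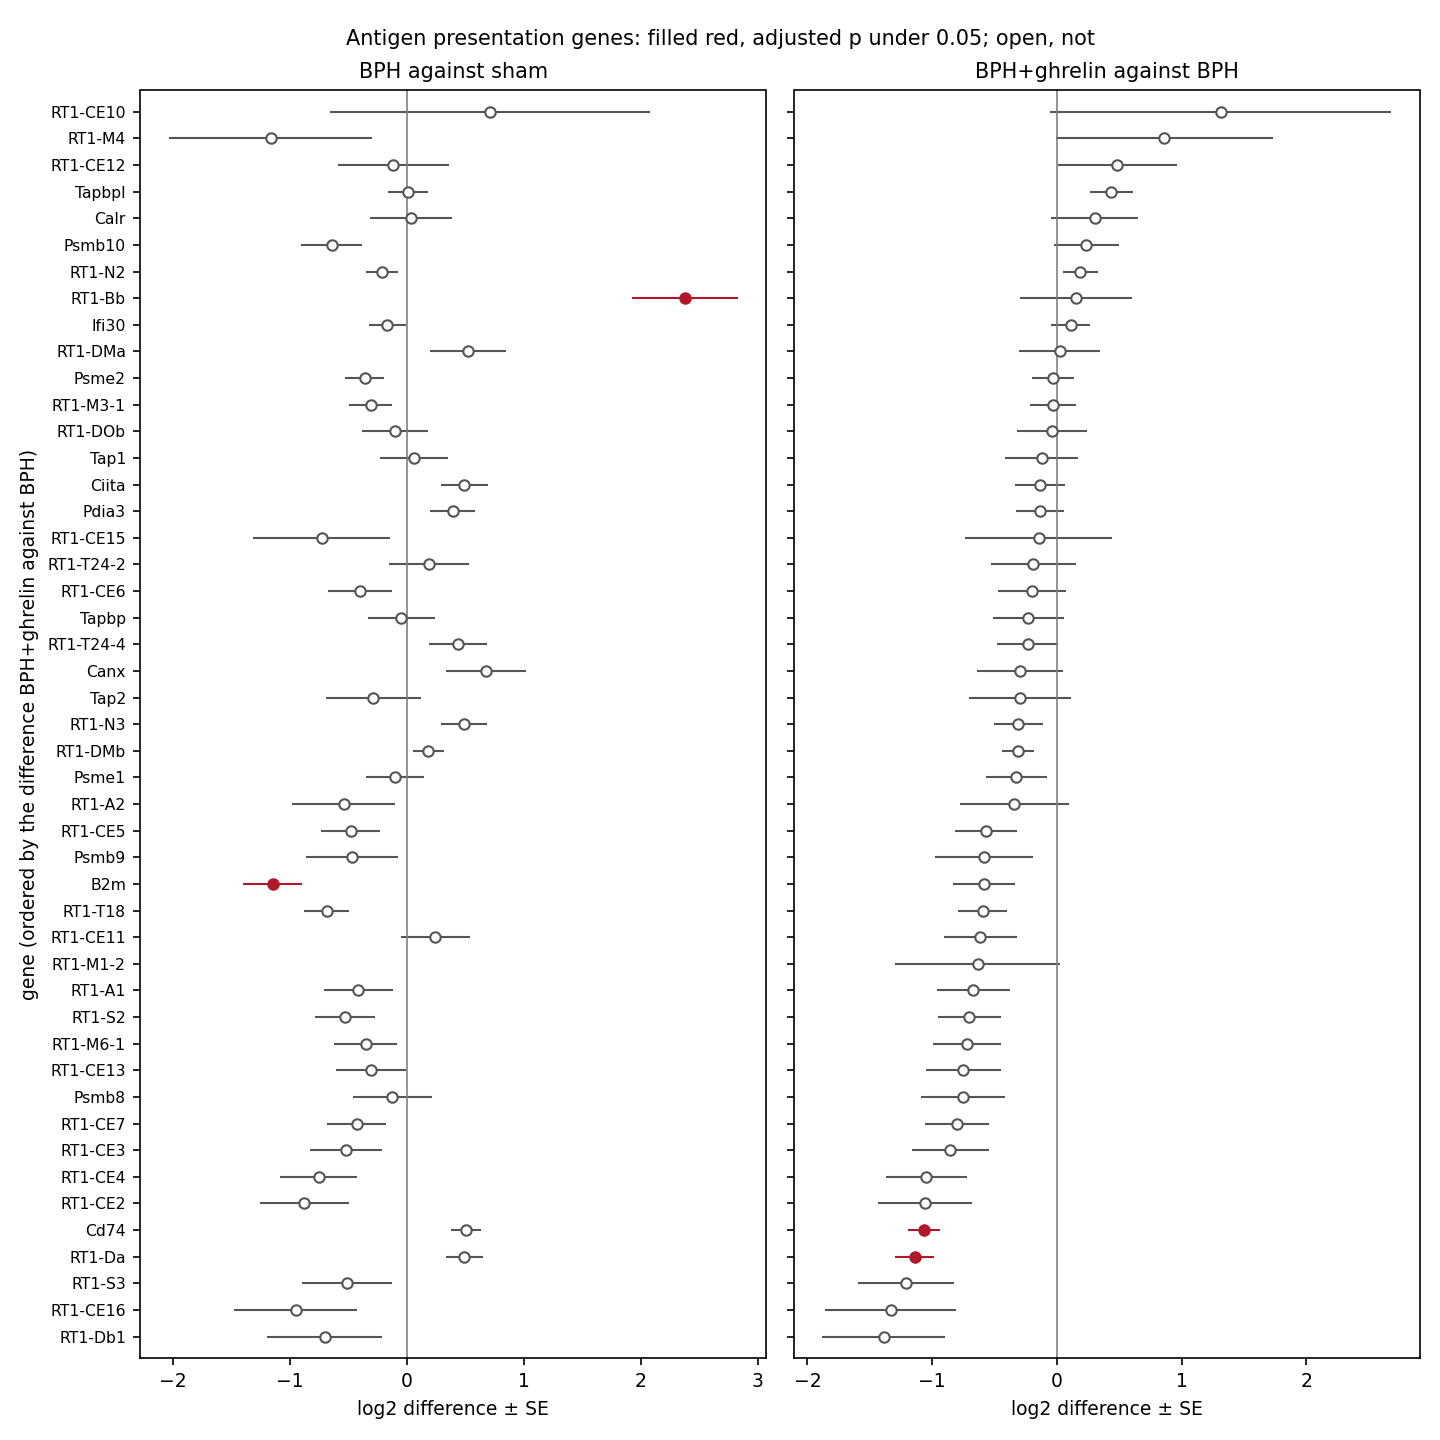
Log2 differences ± SE (x axes) of the members tested (y axis, ordered by BPH+ghrelin against BPH), for BPH against sham (left) and BPH+ghrelin against BPH (right); filled red points passed the test. B2m and RT1-Bb are red on the left, Cd74 and RT1-Da on the right, and 37 of 47 points on the right lie below 0.

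Among class II genes, RT1-Da had log2 signals of 9.94, 10.44 and 10.09 in sham, 10.53, 10.64 and 10.78 in BPH, and 9.41, 9.48 and 9.65 in BPH+ghrelin. The 3 groups did not overlap, with BPH on top and BPH+ghrelin at the bottom. The ghrelin difference was −1.14 (SE 0.16, limma adjusted p = 0.0240), the difference of BPH from sham was 0.49 (SE 0.16, limma adjusted p = 0.107) and that of BPH+ghrelin from sham was −0.65 (SE 0.16, limma adjusted p = 0.0494). The ghrelin call stood without BPH replicate 3 (limma adjusted p = 0.0435) and was lost when any other of the 6 arrays was left out (0.0591 to 0.146), with differences between −1.08 and −1.21.

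The invariant chain Cd74, which blocks the peptide groove and guides class II chains to lysosomes, followed the same order. Its signals were 10.33, 10.30 and 10.32 in sham, 10.71, 10.70 and 11.05 in BPH, and 9.69, 9.75 and 9.82 in BPH+ghrelin. Again the groups did not overlap, and the sham arrays differed by only 0.02 (SD). Cd74 was lower in BPH+ghrelin than in BPH by −1.06 (SE 0.13, limma adjusted p = 0.0162) and than in sham by −0.56 (SE 0.13, limma adjusted p = 0.0414), while BPH lay 0.51 above sham (SE 0.13, limma adjusted p = 0.0639). Leaving out BPH replicate 3 kept the ghrelin call (limma adjusted p = 0.0230) and leaving out any other array of the comparison ended it (0.0516 to 0.113), with differences between −0.95 and −1.12. BPH+ghrelin replicate 1, the array scanned with the BPH arrays, lay below them by −1.12 for Cd74 and −1.24 for RT1-Da. With scan as a block both calls were lost (limma adjusted p = 0.231 and 0.235).

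RT1-Db1, the beta chain that pairs with RT1-Da, had signals of 9.87, 11.25 and 10.45 in sham, 10.66, 10.06 and 8.76 in BPH, and 8.50, 8.44 and 8.38 in BPH+ghrelin. The ghrelin arrays lay below every other array, while sham and BPH overlapped and BPH replicate 3 stood near the ghrelin arrays. The difference from sham was −2.09 (SE 0.49, limma adjusted p = 0.0457) and that from BPH was −1.39 (SE 0.49, limma adjusted p = 0.169). Its second, dimmer probe gave the same order of means, 8.20 in sham, 7.98 in BPH and 7.34 in BPH+ghrelin. The call against sham held without sham replicate 1 and was lost when any other array of the comparison was left out.

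The 2 probes of RT1-Bb, the beta chain of RT1-B, gave opposite answers. The probe that represented the gene read 4.90, 5.69 and 5.32 in sham, 6.63, 7.75 and 8.66 in BPH, and 7.84, 7.76 and 7.89 in BPH+ghrelin, so every sham array was lower than every other array. The second probe read 8.63, 10.10 and 9.24 in sham and 9.53, 8.62 and 0.63 in BPH, and 0.60, 1.30 and 1.09 in BPH+ghrelin. It was not well above background on any ghrelin array or on BPH replicate 3, so its mean was at least 98.3-fold lower in BPH+ghrelin than in sham, and at least 11.7-fold lower than in BPH, where 2 of 3 arrays measured it. Such bounds divide the mean of the brighter group by the lowest signal that counted as above background on the dim arrays. The second probe was the brighter, and stood for the gene, with normexp background correction in both comparisons with sham and with 6 arrays alone in BPH against sham. In BPH+ghrelin against BPH it was above background on too few arrays to be compared. Where the second probe or the mean of both stood for the gene, the difference of BPH from sham turned to between −0.34 and −3.06 and was not called (limma adjusted p = 0.367 to 0.815). BPH replicate 3, at background for the second probe, enters these values. BPH+ghrelin against sham also turned to lower with the second probe or the mean of both, but with no ghrelin array above background the fitted sizes are not measurements, and the bound above is what the second probe gives (limma adjusted p = 0.0495 with each probe on its own). The call of the first probe was also lost without sham replicate 3 (limma adjusted p = 0.109), BPH replicate 2 (0.136) or BPH replicate 3 (0.0600), at differences of 1.89 to 2.39. RT1-Ba, the partner alpha chain, was well above background on sham replicates 1 and 3 alone, with signals of 6.56, 2.25 and 6.08 in sham, 0.72, 0.59 and 0.54 in BPH, and 1.55, 1.56 and 1.67 in BPH+ghrelin. Its mean in sham was at least 5.25-fold that in BPH and at least 4.79-fold that in BPH+ghrelin. Probe sequences are not in the files used here, and the part of allele differences between these outbred rats in such probe readings was not tested.

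**Figure D2:**
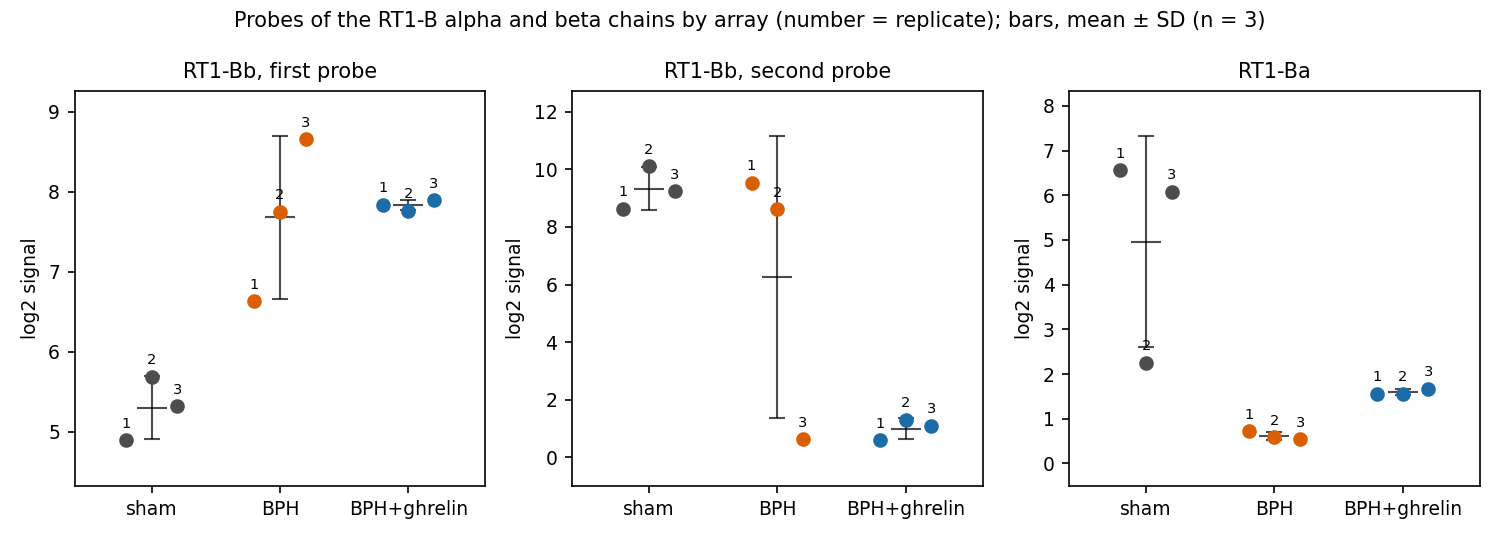
Log2 signal (y axes) by group (x axes) for the 2 probes of RT1-Bb and the probe of RT1-Ba; points are arrays, numbered by replicate, and bars are mean ± SD (n = 3). The first RT1-Bb probe is lowest in sham (4.90 to 5.69), the second is lowest in BPH+ghrelin (0.60 to 1.30), and BPH replicates lie at both ends of the second.

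No other class II gene was called. RT1-DMa and RT1-DMb, which form the editor that exchanges peptides in lysosomes, differed between BPH+ghrelin and BPH by 0.02 (SE 0.33, limma adjusted p = 0.976) and −0.31 (SE 0.13, limma adjusted p = 0.219). RT1-DMb did not overlap in that comparison. Ciita was dim, with signals of 3.25, 2.81 and 2.84 in sham, 3.23, 3.39 and 3.75 in BPH, and 3.30, 3.10 and 3.57 in BPH+ghrelin, and was well above background on 1 of 3 sham arrays and all others. Its difference was 0.49 in BPH against sham (SE 0.20, limma adjusted p = 0.169) and −0.13 in BPH+ghrelin against BPH (SE 0.20, limma adjusted p = 0.736). Ifi30, a lysosomal reductase that opens disulfide bonds of antigens, read 12.07, 12.41 and 12.17 in sham, 12.27, 12.06 and 11.82 in BPH, and 12.27, 12.17 and 12.04 in BPH+ghrelin, with differences of −0.17 and 0.11 in those comparisons and no call.

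**Figure D3:**
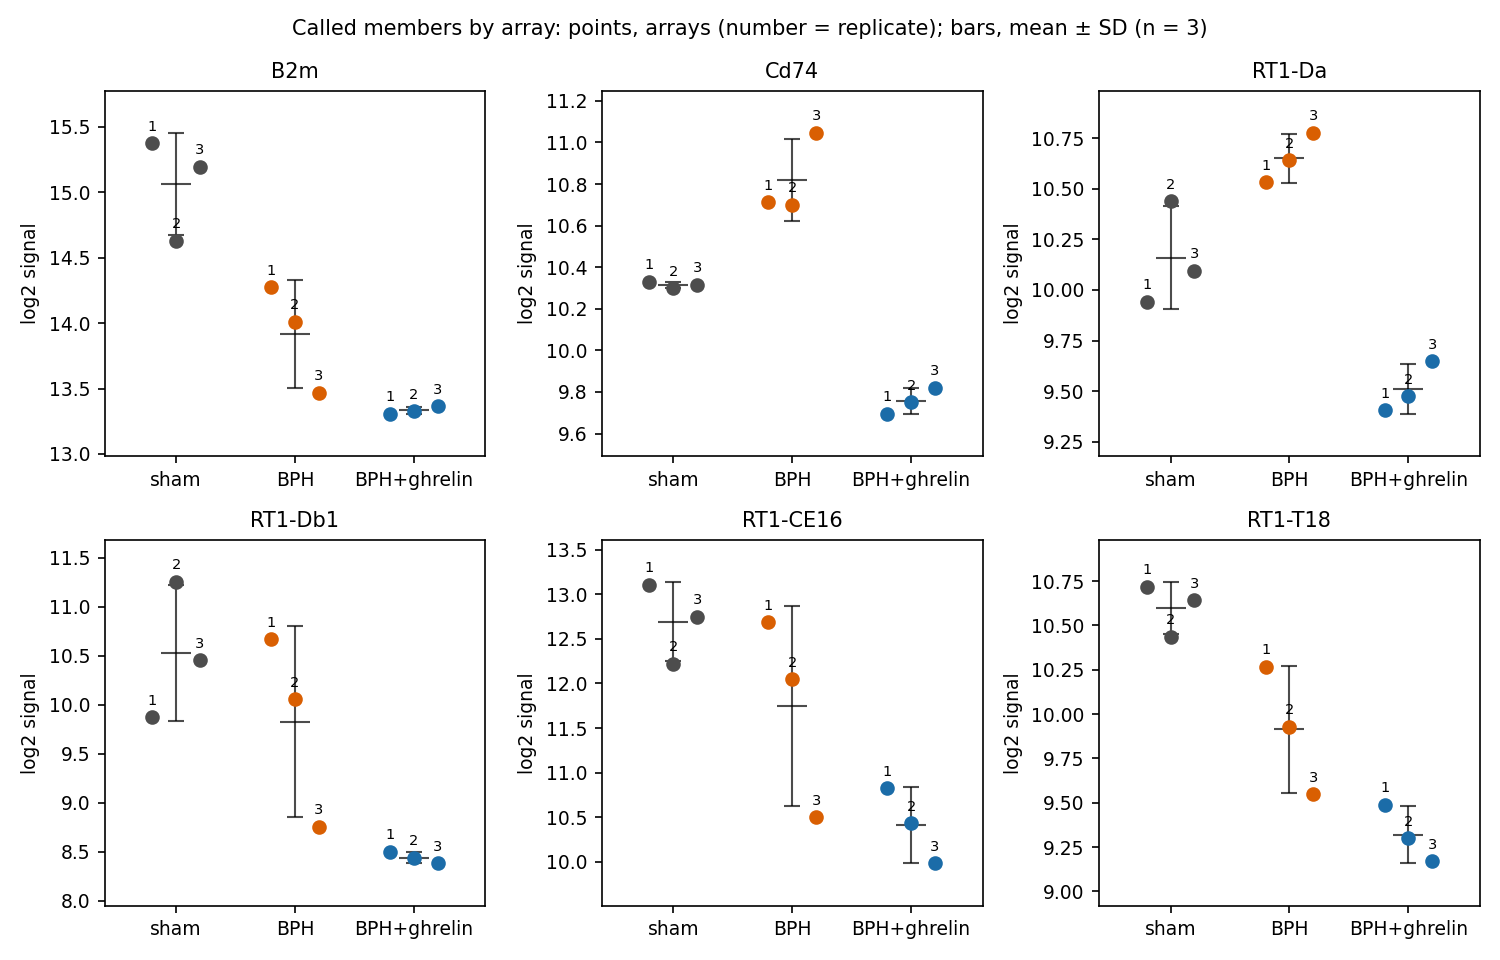
Log2 signal (y axes, each with its own range) by group (x axes) of 6 members called in at least 1 comparison; points are arrays, numbered by replicate, and bars are mean ± SD (n = 3). Cd74 and RT1-Da are highest in BPH, whereas B2m, RT1-CE16 and RT1-T18 are highest in sham, and BPH replicate 3 lies nearest to the ghrelin arrays for B2m, RT1-Db1, RT1-CE16 and RT1-T18.

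The light chain B2m had log2 signals of 15.37, 14.63 and 15.19 in sham, 14.27, 14.01 and 13.47 in BPH, and 13.31, 13.33 and 13.36 in BPH+ghrelin. The groups formed 3 steps without overlap, and BPH replicate 3 was close to the ghrelin arrays. B2m was 3.32-fold lower in BPH+ghrelin than in sham (−1.73, SE 0.25, limma adjusted p = 0.00897), and −0.58 lower than in BPH (SE 0.25, limma adjusted p = 0.228). The call of BPH against sham was lost without sham replicate 3 (limma adjusted p = 0.147), BPH replicate 2 (0.158) or BPH replicate 3 (0.105), at differences of −0.92 to −1.19. The call of BPH+ghrelin against sham was lost only without BPH+ghrelin replicate 2 among the leave-outs (limma adjusted p = 0.0502).

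RT1-CE16, a class I heavy chain gene, read 13.11, 12.22 and 12.75 in sham, 12.69, 12.05 and 10.50 in BPH, and 10.83, 10.43 and 9.98 in BPH+ghrelin, so that BPH spanned the gap between the other groups. It was 4.85-fold lower in BPH+ghrelin than in sham (−2.28, SE 0.52, limma adjusted p = 0.0430), and −1.33 lower than in BPH (SE 0.53, limma adjusted p = 0.202). RT1-CE4 read 10.08, 9.50 and 9.82 in sham, 9.69, 9.18 and 8.27 in BPH, and 8.04, 8.02 and 7.93 in BPH+ghrelin, and was 3.48-fold lower in the last than in sham (limma adjusted p = 0.0213). RT1-S3 was 3.30-fold lower in that comparison (limma adjusted p = 0.0387), with 11.19, 10.72 and 10.92 in sham, 11.21, 10.61 and 9.47 in BPH, and 9.32, 9.15 and 9.19 in BPH+ghrelin. RT1-T18 had the smallest adjusted p of this class against sham (2.43-fold lower, limma adjusted p = 0.0116), with 10.72, 10.44 and 10.64 in sham, 10.27, 9.93 and 9.55 in BPH, and 9.49, 9.30 and 9.17 in BPH+ghrelin. Its second probe, at 2.99 to 3.68 on all arrays, showed no such difference (−0.15, SE 0.21).

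The remaining class I calls against sham were RT1-CE2 (3.82-fold lower), RT1-CE3 (2.59-fold), RT1-CE7 (2.34-fold), RT1-S2 (2.34-fold) and RT1-CE5 (2.07-fold), with limma adjusted p between 0.0259 and 0.0475. RT1-CE2 read 13.17, 11.77 and 12.80 in sham, 12.09, 11.86 and 11.15 in BPH, and 10.86, 10.69 and 10.39 in BPH+ghrelin. RT1-CE3 read 7.30, 6.73 and 7.11, then 7.12, 6.63 and 5.82, then 5.75, 5.54 and 5.72 in the same order. For both of these probes, the ghrelin arrays lay below all others, and sham and BPH overlapped. The second, dimmer probe of RT1-CE2 differed: it read 9.91, 7.41 and 9.28 in sham, 7.48, 7.58 and 7.49 in BPH, and 7.23, 7.49 and 7.59 in BPH+ghrelin. There the ghrelin and BPH arrays overlapped, and with each probe tested on its own the difference from sham was not called (−1.43, SE 0.54, limma adjusted p = 0.156). RT1-CE7 read 10.87, 9.93 and 10.54, then 10.35, 10.04 and 9.67, then 9.20, 9.22 and 9.24. RT1-S2 read 12.17, 11.12 and 11.89, then 11.32, 11.31 and 10.97, then 10.53, 10.56 and 10.41. RT1-CE5 read 11.38, 10.31 and 11.04, then 10.57, 10.44 and 10.27, then 9.94, 9.85 and 9.79. In these 3 genes the ghrelin arrays were again lowest, sham replicate 2 lay within the BPH range and the other sham arrays lay above it. The second probes of RT1-S2 and RT1-CE5 were also lower in BPH+ghrelin than in sham, by −0.93 (limma adjusted p = 0.0395) and −0.68 (0.0448). RT1-A1, the gene of the classical class I molecule RT1-A, was 2.12-fold lower by its brighter probe without passing the test (limma adjusted p = 0.0674), at 14.23, 13.05 and 13.86 in sham, 13.54, 13.35 and 13.01 in BPH, and 12.80, 12.64 and 12.44 in BPH+ghrelin. Its dimmer probe, tested on its own, passed (−1.75, SE 0.41, limma adjusted p = 0.0463), so that the call of RT1-A1 depends on the probe. Over the 24 class I and other RT1 genes tested throughout, the median distance from the sham mean was −0.18, −0.33 and −0.67 on the 3 BPH arrays and −0.81, −0.93 and −1.15 on the ghrelin arrays. It was 0.38, −0.39 and 0.06 on the sham arrays themselves. BPH replicate 3 was thus nearer in this measure to BPH+ghrelin replicates 1 and 2 than to the other BPH arrays. It was nearer to BPH replicate 2 than to BPH+ghrelin replicate 3. Without BPH replicate 3 the ghrelin comparison called RT1-CE16, RT1-CE3, RT1-CE4 and RT1-S3 beside Cd74 and RT1-Da, when 2.02% of all genes were called. Leaving out any of the other 5 arrays of that comparison called 0 members. Many RT1 class I genes are close copies of one another, so that 1 transcript can light several probes and these genes do not count as separate observations.

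**Figure D4:**
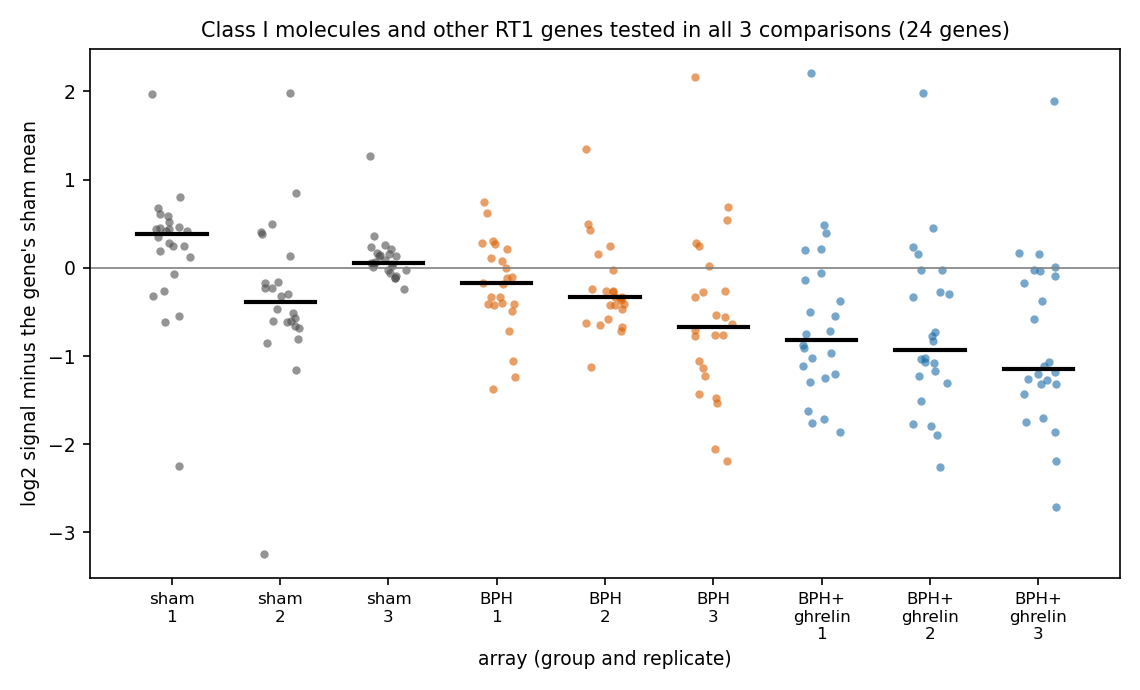
Log2 signal of 24 class I and other RT1 genes minus the gene's own sham mean (y axis), for each of 9 arrays (x axis); points are genes and black bars are medians. Medians fall from 0.38 on sham replicate 1 to −1.15 on BPH+ghrelin replicate 3, with sham replicate 2 at −0.39 and BPH replicate 3 at −0.67.

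Several RT1 genes outside class II did not share this order. RT1-T24-4 lay at 10.41 to 11.46 in sham, 11.21 to 11.58 in BPH and 11.12 to 11.19 in BPH+ghrelin, and RT1-N2 at 7.82 to 8.36 over all arrays. RT1-CE10 read 5.90, 0.69 and 5.19 in sham, 2.55, 5.27 and 6.10 in BPH, and 6.14, 5.91 and 5.82 in BPH+ghrelin, being near background on sham replicate 2 and BPH replicate 1. RT1-M4 read 4.46, 8.68 and 6.96 in sham against 5.47, 5.58 and 5.56 in BPH and 6.15, 6.38 and 6.67 in BPH+ghrelin. Neither gene was called in any comparison of the main fit. Among the alternative settings, RT1-M4 passed in 1 of BPH against sham, without sham replicate 1 (lower, limma adjusted p = 0.0238). In that setting 15.7% of all genes were called. RT1-M4 also passed in 1 of BPH+ghrelin against BPH, with 6 arrays alone (higher, limma adjusted p = 0.0288), where 10.7% of all genes were called. Among 38 RT1 probes that passed the filter, 7 (18.4%) ranged at least 4-fold within a group, against 0 of 16 other member probes and 5.23% of 22568 probes, with values under the lowest signal above background of an array raised to it. The median within-group SD was 0.40 for RT1 probes, 0.34 for the other member probes and 0.28 for all probes. Of the 2 probes of RT1-M6-1, one was not well above background on any array and the other was on all 9. That brighter probe did share the order of means, at 11.92 in sham, 11.57 in BPH and 10.85 in BPH+ghrelin, without a call in the main fit.

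Of 7 genes that cut and transport peptides, limma called 0 in each comparison, and 1, 0 and 3 were lower at an unadjusted p under 0.05 in BPH against sham, BPH+ghrelin against BPH and BPH+ghrelin against sham, against 12.0%, 10.5% and 10.2% of all genes. Without the middle arrays these counts were 0, 0 and 0. The immunoproteasome subunit Psmb8 read 6.47, 7.86 and 7.07 in sham, 7.38, 7.03 and 6.61 in BPH, and 6.24, 6.20 and 6.33 in BPH+ghrelin, and did not overlap between the last 2 groups (−0.75, SE 0.34, limma adjusted p = 0.246). Its partner Psmb9 read 8.63, 10.23 and 9.35, then 9.38, 9.03 and 8.40, then 8.40, 8.31 and 8.35. Its mean in BPH+ghrelin was −1.05 from sham (SE 0.39, limma adjusted p = 0.151). For both, sham replicate 2 was highest. The ghrelin arrays of Psmb8 lay below all others, while for Psmb9 BPH replicate 3 lay among them. Psmb10, the third immunoproteasome subunit, read 11.05, 12.24 and 11.60 in sham, 11.03, 10.98 and 10.96 in BPH, and 11.30, 11.20 and 11.17 in BPH+ghrelin (0.24 over BPH, SE 0.26, limma adjusted p = 0.631). The transporter subunit Tap1 gave signals of 5.81, 4.72 and 5.49 in sham, 5.57, 5.53 and 5.10 in BPH, and 5.47, 5.42 and 4.95 in BPH+ghrelin. Its partner Tap2 gave 7.49, 9.18 and 8.28, then 8.46, 8.08 and 7.55, then 7.52, 7.72 and 7.96, and no comparison of either was called. The proteasome activators Psme1 and Psme2 differed between BPH+ghrelin and BPH by −0.32 (SE 0.25) and −0.03 (SE 0.17). Psme1 read 13.31, 13.85 and 13.49 in sham, 13.83, 13.52 and 13.00 in BPH, and 12.86, 13.17 and 13.35 in BPH+ghrelin.

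The chaperones of the peptide-loading complex lay apart from B2m. Calreticulin (Calr), calnexin (Canx) and the disulfide isomerase Pdia3 had BPH means above sham by 0.04, 0.68 and 0.39, with limma adjusted p of 0.957, 0.248 and 0.232. Canx read 9.17, 8.01 and 8.75 in sham, 8.74, 9.41 and 9.80 in BPH, and 9.22, 9.04 and 8.80 in BPH+ghrelin. Tapbp (tapasin, the bridge to the transporter) differed by −0.05 and then −0.23, and its relative Tapbpl, at 4.19, 4.22 and 4.14 in sham, 3.99, 4.24 and 4.35 in BPH and 4.30, 4.87 and 4.73 in BPH+ghrelin, lay 0.44 higher in BPH+ghrelin than in BPH (SE 0.17, limma adjusted p = 0.2003). None of these 5 genes passed the test in any comparison.

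Genes outside the set that act in the same pathways were also counted. Of 9 genes of interferon gamma signalling tested, 6 had lower means with ghrelin than in BPH and 0 were called, and the receptor chain Ifngr1 had the largest difference (−1.36, SE 0.35, limma adjusted p = 0.0935). Of 7 factors that bind class II promoters (Rfx5, Rfxank, Rfxap, Nfya, Nfyb, Nfyc and Creb1), 1 was lower and 6 higher, with none called. Cathepsin S (Ctss), the protease that trims the invariant chain, fell. It read 9.43, 9.72 and 9.51 in sham, 10.18, 9.99 and 9.94 in BPH, and 9.10, 9.14 and 9.17 in BPH+ghrelin, the order of Cd74 and RT1-Da (−0.90 against BPH, SE 0.13, limma adjusted p = 0.0240). The other 4 lysosomal proteases (Ctsb, Ctsd, Ctsl and Lgmn) were not called. Of 5 class I-like genes outside the complex, 5 were lower and 1 was called, Procr, the protein C receptor of endothelium. Procr was dim, at 4.82, 4.66 and 4.53 in BPH and 2.37, 3.22 and 2.88 in BPH+ghrelin, and was well above background on only 1 of 3 ghrelin arrays, so the size of its difference was not measured. Of 4 genes of the standard proteasome 1 was lower and 3 higher, and of 3 costimulatory genes 1 was lower and 2 higher, with no call.

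Leukocyte markers were also lower with ghrelin. In BPH+ghrelin against BPH, 9 of 10 macrophage and dendritic cell markers had lower means, 6 without overlap (19.3% of all genes), and 1 was called (0.987% of all genes), the complement chain C1qa (−0.80, SE 0.15, limma adjusted p = 0.0489). Their summed signal lay at log2 13.3 to 13.6 in BPH+ghrelin, 13.8 to 14.4 in BPH and 13.6 to 13.9 in sham. Among 4 pan-leukocyte markers 4 were lower, and Ptprc, the common leukocyte antigen CD45, was called (−0.82, SE 0.14, limma adjusted p = 0.0368). Ptprc did not differ detectably between BPH and sham (0.04, SE 0.14, limma adjusted p = 0.861). Cd52, a surface peptide of lymphocytes and of male genital epithelium, read 14.62, 12.20 and 13.99 in sham, 9.74, 8.90 and 4.74 in BPH, and 5.70, 5.06 and 4.05 in BPH+ghrelin, with sham above all other arrays and BPH replicate 3 among the ghrelin arrays. Because of Cd52, the leukocyte sum lay at 12.9 to 14.7 in sham, 10.7 to 11.6 in BPH and 10.3 to 10.5 in BPH+ghrelin. Of 6 T and NK cell markers 6 had lower means with ghrelin than without it, with 0 called, and Cd3e was near background. Of 5 fibroblast and smooth muscle genes 2 were called lower, Vim (−1.28) and Myh11 (−0.96), with limma adjusted p of 0.0252 and 0.0160. Col1a1 of this list had a higher mean with ghrelin, at 10.60, 11.61 and 12.27 in BPH and 11.76, 12.00 and 12.27 in BPH+ghrelin. Without the middle arrays, 4 of the 5 genes were lower and 1 was higher. The part of these shifts in the antigen presentation results was not tested. In whole tissue, fewer cells of a type and less RNA per cell cannot be told apart.

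Of the 54 members, 7 were above background on too few arrays to enter a comparison (RT1-Ba, RT1-DOa, RT1-Ha, RT1-M1-4, RT1-M1-5, RT1-M2 and RT1-M5). RT1-Ha and RT1-M1-4 were not well above background on any array. RT1-M1-2 was tested only in BPH+ghrelin against BPH, where it was above background on 2 of 3 BPH arrays and 1 of 3 ghrelin arrays and was not called (limma adjusted p = 0.607). By position in RefSeq, 43 of the 54 genes lie on chromosome 20, the chromosome of the rat MHC.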

How the data were processed

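Total RNA of rat prostate was amplified, labelled with Cy3 and hybridised to Agilent one-colour arrays by the authors, who read the spots with Feature Extraction 11.0.1.1. The deposited files hold 1 processed, background-corrected intensity per spot, for 44254 spots (42877 without controls). A deposited table of log2 values, quantile normalized by the authors in GeneSpring GX 12.1 per the methods, was an alternative here: each column correlated best with its own array (lowest r 0.989), and its median was 5.26.

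Outlier spots (313 to 741 an array) were removed, spots of a probe were averaged, and log2 intensities were then quantile normalized. For each gene the brightest probe was used among those flagged well above background on 3 or more of the 6 arrays of a comparison. limma 3.58.1 (R 4.3.3, lmFit and eBayes) fitted the 3 groups together, with Benjamini-Hochberg adjustment over all genes, and was tested on simulated data; the methods apply no test to arrays. With 3 arrays against 3, an exact permutation test cannot go below 0.10, and the number of arrays limits the precision. Symbols came from RefSeq (GRCr8) through accessions, for 17998 probes. The totals of all genes tested exceed the 15163 genes matched to a symbol, because they also hold probes without a matched symbol.

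The members, gene lists and tests were chosen with earlier results of these data known. Array values were given for members called in any comparison, for B2m, Cd74, Ciita, Tap1, Tap2, Psmb8 and Psmb9, and for the brightest and most changed of each role. RT1-Ba, RT1-T24-4, RT1-N2, RT1-M6-1 and second probes were added after their values were seen. Results on a few marker and pathway genes outside the members are not reported here.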

Additional observations from a re-analysis of the deposited data

How the results depend on the processing

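Limits were the 3 arrays a group, the intermediate position of 1 array in each group and close RT1 copies, whose probes may share signal. Fitted sizes against arrays at background are not measurements. Counts of members called in BPH against sham, BPH+ghrelin against BPH and BPH+ghrelin against sham were 2, 2 and 14. They were 0, 0 and 0 with scan as a block or without the middle array of each group (chosen after seeing the data, as were 8 settings of the third comparison), 0, 7 and 10 when 6 arrays were normalized and fitted alone (0.921%, 10.7% and 4.74% of all genes were then called), 1, 2 and 12 with the mean of a gene's probes, and 2, 3 and 5 without a filter on dim probes. The replicate block gave 0, 0 and 6. The numbers did not pair the arrays: correlations of same-numbered arrays' deviations from the group means ran from −0.14 to 0.26 over all probes. Leaving out 1 array gave 0 to 7, 0 to 6 and 0 to 17, in fits with fewer samples that called 0.609% to 15.7%, 0.0152% to 2.02% and 1.16% to 10.03% of all genes. The counts with the mean of probes, without a filter and with the replicate block are given without shares of all genes. Those counts therefore do not compare the members with other genes.

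The median difference of the members stayed below 0 in each setting. In BPH against sham (−0.25) it was −0.15 without a filter and −0.073 without BPH replicate 3, and in BPH+ghrelin against BPH (−0.31) it was −0.19 with 75th percentile scaling. In BPH+ghrelin against sham it was −0.49 with a filter on all 6 arrays or the mean of probes, −0.58 with each probe on its own, and −0.52 to −0.32 with an array left out. RT1-Bb turned to −1.22 (normexp), −3.06 (6 arrays) and −0.34 (mean of probes) in BPH against sham and to −3.28 (normexp) and −2.90 (mean) in BPH+ghrelin against sham, because another probe entered (not above background on any ghrelin array), and ran from −0.37 to 0.64 in BPH+ghrelin against BPH with an array left out.

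Genes that were not called also turned sign, and the cause was not tested. In BPH against sham these were Tap1 (−0.043) and Tapbpl (−0.19) with 75th percentile scaling, Psme1 (0.26), Tap1 (−0.15) and Tap2 (0.012) with scan as a block, and Tapbpl (−0.033) without the middle arrays. With an array left out, Psmb8 ran from −0.46 to 0.24, Psme1 from −0.29 to 0.13, RT1-CE10 from −0.91 to 1.76, Tap1 from −0.25 to 0.30, Tap2 from −0.70 to 0.14 and Tapbpl from −0.069 to 0.11. In BPH+ghrelin against BPH these were Ciita (0.034) and Psme1 (0.068) with 75th percentile scaling, Ciita (0.017) with normexp and Tap1 (0.070) with scan as a block, and with an array left out Ciita ran from −0.26 to 0.017, Ifi30 from −0.0043 to 0.22 and Tap1 from −0.27 to 0.045. In BPH+ghrelin against sham Ifi30 was 0.039 with 75th percentile scaling, and with an array left out Ifi30 ran from −0.13 to 0.040, Tap1 from −0.37 to 0.18 and RT1-M4 from −1.42 to 0.69. Of 39 such turns, 1 had an adjusted p under 0.05, that of RT1-Bb with normexp. With settings other than leaving out an array, Cd74 and RT1-Da kept their ghrelin call in 8 of 11, and B2m its calls in 6 of 11 (BPH against sham) and 9 of 11 (BPH+ghrelin against sham). RT1-Bb kept its call of BPH against sham in 5 of 11. In BPH+ghrelin against sham the members called kept their calls in 5 of 11 (RT1-Da and RT1-CE5) to 9 of 11 (B2m, RT1-CE4 and RT1-T18).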
